A study of Mus musculus with 27 samples.

Results

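The genes described here are 10 markers of Muller glia and astrocytes, the macroglia of the retina: Glul, Rlbp1, Slc1a3, Apoe, Vim, Gfap, Aqp4, Dkk3, Clu and Car2. They were chosen by gene symbol among 19301 genes with a symbol of their own on the array, and each of the 10 had 1 probe set. They serve as a reading of glial RNA in samples of sorted neurons. No measured value entered the choice, although it was made with earlier results of these arrays known. Of the 10 members, 8 passed the filter on dim genes, which asked for a level above 2.83, the median of all log2 values, on at least 3 arrays. Gfap and Aqp4 did not pass and were not tested, and Slc1a3 passed with exactly 3 of 27 arrays.

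The study measured expression on 27 mouse arrays in 9 groups of 3, each array from 200 fluorescent cells sorted from dissociated adult retina. Arc amacrine cells came from the line Tg(Arc-EGFP)194Gsat/Mmcd and served the study as a control between batches. Pure cone arrays held 200 cones of the line Tg(Chrnb4-EGFP)1Gsat, and pure starburst arrays held 200 starburst amacrine cells of the cross of 129S6-Chat_tm1(cre)Lowl/J with Rosa26-LSL-RFP, in which Chat-driven Cre switches on RFP. Mixtures of both lines held 50, 75, 100, 150, 157 or 183 cones, made up to 200 with starburst cells, of which those with 75, 157 and 183 are called X mixtures. The labels give every array a mixed background of C57BL/6J with an FVB/N-Swiss Webster hybrid, and state that the hybrids carried a recessive mutation that makes photoreceptors degenerate. For the titration, 2 retinas of the cone line were pooled with 6 of the starburst line, and this was sorted 3 times from different mice. Each cell type had its own reporter line, so cell type and line cannot be told apart, and for the Arc cells neither can a batch. The number of arrays per group limits the precision of each value.

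Muller glia are the radial glia that span the retina. They take up glutamate and turn it into glutamine, move water and potassium towards the vessels, and supply cones with retinoid. Astrocytes lie along the vessels and nerve fibres of the inner surface and are rich in Gfap and Aqp4. Some of the 10 genes are not exclusive to glia: Clu, Car2, Dkk3 and Apoe are also known from neurons, pigment epithelium or immune cells.

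Promoter windows are shown for Rlbp1, Glul and Vim, whose deviations between replicates were positively correlated, and for Gfap, which stayed at the level of dim probes. Apoe, whose deviations were also correlated with those of Rlbp1, Glul and Vim, had 3 listed windows, which are described but not printed. The windows come from RefSeq on build GRCm38.p6 and are written 5′ to 3′ on the gene's strand. They run from 250 bases before to 50 bases after the start listed for each promoter. For Rlbp1 this start lies inside the gene, which spans 79374865 to 79392250 on chromosome 7, and is not its outermost start. Of the 10 members, 6 matched the promoter table by symbol (Glul, Rlbp1, Slc1a3, Apoe, Vim and Gfap). Capitals mark the SOX core (ACAAAG or ACAATG) and the NFI half-site (TTGGC), each searched on both strands, and the motifs did not overlap in these windows.
Rlbp1 (chr7:79386978-79387277, minus strand): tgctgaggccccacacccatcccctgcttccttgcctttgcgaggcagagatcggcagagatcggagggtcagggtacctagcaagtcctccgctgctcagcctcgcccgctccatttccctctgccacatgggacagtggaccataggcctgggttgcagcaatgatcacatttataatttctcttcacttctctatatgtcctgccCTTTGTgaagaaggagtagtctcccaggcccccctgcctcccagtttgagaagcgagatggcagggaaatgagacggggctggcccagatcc
Glul (chr1:153899679-153899978, plus strand): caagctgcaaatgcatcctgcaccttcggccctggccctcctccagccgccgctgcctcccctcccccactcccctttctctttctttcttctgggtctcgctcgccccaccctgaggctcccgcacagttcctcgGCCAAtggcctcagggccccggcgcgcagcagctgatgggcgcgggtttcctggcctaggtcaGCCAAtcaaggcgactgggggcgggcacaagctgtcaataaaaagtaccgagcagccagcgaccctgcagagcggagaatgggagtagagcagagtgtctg
Vim (chr2:13574061-13574360, plus strand): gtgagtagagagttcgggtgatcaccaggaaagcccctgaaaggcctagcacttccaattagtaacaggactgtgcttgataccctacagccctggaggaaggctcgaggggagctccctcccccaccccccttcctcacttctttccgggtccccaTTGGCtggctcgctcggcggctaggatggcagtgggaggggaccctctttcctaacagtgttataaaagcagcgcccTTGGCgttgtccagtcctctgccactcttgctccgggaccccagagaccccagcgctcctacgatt
Gfap (chr11:102897151-102897450, minus strand): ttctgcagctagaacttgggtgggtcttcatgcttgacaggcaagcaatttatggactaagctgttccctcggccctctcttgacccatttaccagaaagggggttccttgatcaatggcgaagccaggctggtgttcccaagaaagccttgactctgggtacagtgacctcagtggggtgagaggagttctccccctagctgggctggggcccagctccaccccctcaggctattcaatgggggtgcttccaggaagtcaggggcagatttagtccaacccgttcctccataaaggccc
The Rlbp1 window held 1 SOX core, with its first base at -42 from the listed start inside the gene. The Glul window held 2 NFI half-sites, at -114 and -51, and the Vim window also held 2, at -93 and -16. The Gfap window held none of these letters. Of the Apoe windows the first held 2 SOX cores and 1 NFI half-site, the second neither and the third 1 NFI half-site. Among all 32851 promoters of the same length, 28.6% held a SOX core and 46.7% an NFI half-site, so these matches are common and are given as a description of the windows.

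The arrays were checked first. Array medians lay between 2.78 and 2.89, replicates of a group correlated at 0.935 to 0.979 over all 22347 probe sets, and 0 pairs of arrays were identical. All 7 listed cone genes were called higher on pure cone than on pure starburst arrays, and 5 of 7 starburst genes lower. On 5 arrays, all replicate 3 of their group, the summed linear level of the 7 cone genes lay more than 1.5 times under that of both other replicates (75, 150, 157, 183 and 200 cones). On pure cone arrays it was 5104 on replicate 3, against 12620 and 12240 on the other replicates. The mean log2 level of 6 rod genes was higher on each of the 5 arrays than on both other replicates. On replicate 3 of the pure cones it was 8.0, against 6.41 and 6.34. Their summed linear level was the highest of its group on those with 150, 183 and 200 cones. It was the lowest on those with 75 cones (618, against 657 and 768.7) and 157 cones (1569, against 1715 and 1658). Calls of the members and of the related genes that changed without these 5 arrays are given both ways below. The arrays were picked by cone genes, so leaving them out favours calls of genes that follow cone RNA. Calls gained in this setting are therefore no independent support. Of the reporter genes, Chat was lower on pure cone than on pure starburst arrays by -1.04 ± 0.22 on the log2 scale (adjusted p = 0.0026). Chrnb4 was higher on pure cone arrays by 1.35 ± 0.44 (adjusted p = 0.045), and Arc was higher on Arc than on pure starburst arrays by 1.47 ± 0.14 (adjusted p = 1.7e-07).

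**Figure D1:**
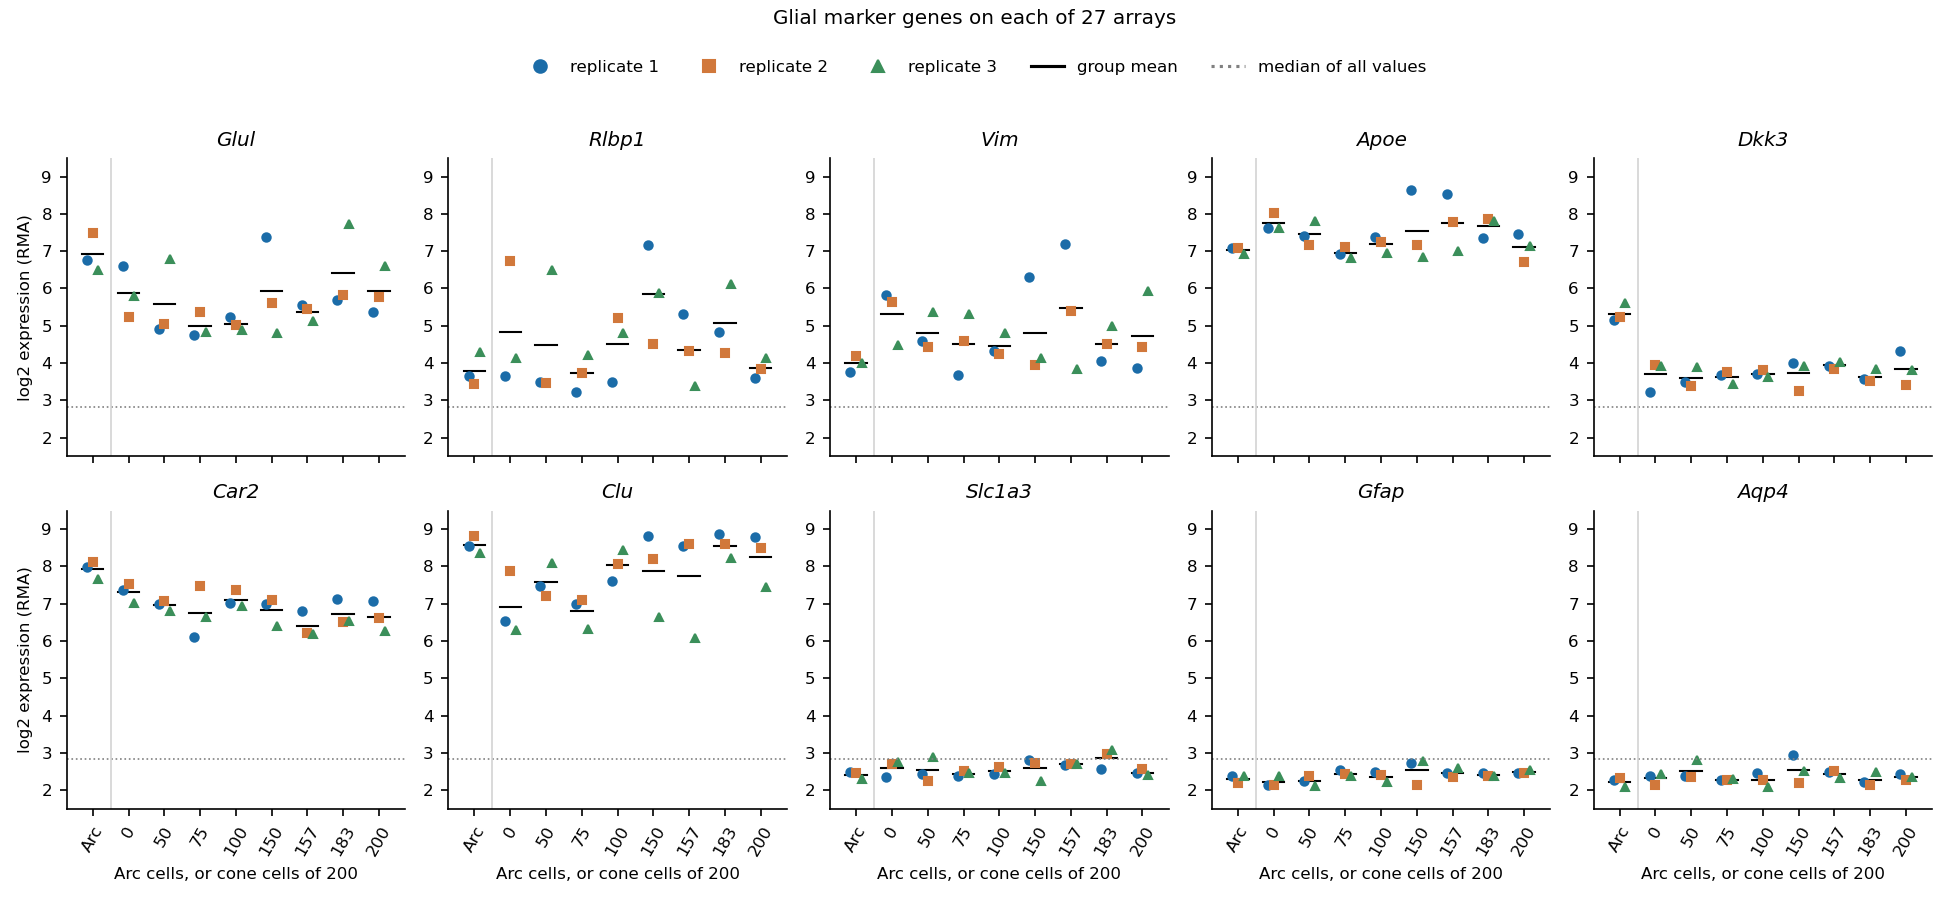
Log2 RMA expression (y axis) of the 10 glial markers on 27 arrays, with the Arc cells at the left and then the groups by number of cone cells of 200 (x axis). Symbols are the 3 replicates, black bars group means and the dotted line the median of all values. Glul, Rlbp1 and Vim spread widely within groups, Dkk3 and Car2 are highest on the 3 Arc arrays, and Gfap and Aqp4 lie near or under the dotted line.

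Gfap, Aqp4 and Slc1a3 were at or near the level of dim probes. Gfap, the intermediate filament of astrocytes and of reactive Muller glia, lay between 2.11 and 2.78 and was under the filter level on all 27 arrays. Aqp4, the water channel of glial endfeet, lay between 2.09 and 2.95 and exceeded the filter level on 1 array, replicate 1 with 150 cones. Slc1a3, the glutamate transporter GLAST of Muller glia, lay between 2.24 and 3.07. It exceeded the filter level on replicate 3 with 50 cones (2.89) and on replicates 2 and 3 with 183 cones (2.96 and 3.07). Such levels limit what can be read: they do not show that the transcript was absent. In the fit without a filter, Gfap and Aqp4 were not called between cell types, with limma adjusted p from 0.28 to 0.94.

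The other 7 members exceeded the filter level on all 27 arrays, so probe signal of genes known from glia was present in every group. Glul, the enzyme glutamine synthetase, ranged from 4.75 to 7.73 on the log2 scale, a 7.90-fold range. Rlbp1, the retinoid carrier CRALBP of Muller glia and pigment epithelium, ranged from 3.23 to 7.17, a 15.3-fold range. Vim, the intermediate filament vimentin, ranged from 3.67 to 7.19, an 11.5-fold range.

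Much of these ranges lay between replicates of the same group. The SD between replicates, pooled over the 9 groups, was 1.09 for Rlbp1, 0.91 for Vim, 0.78 for Glul, 0.76 for Clu and 0.47 for Apoe, the main lipid carrier of glia. It was 0.37 for Car2, 0.29 for Dkk3 and 0.20 for Slc1a3. The median over all 12441 tested genes was 0.28. Of the tested genes, 0.314% had an SD at least as large as that of Rlbp1, 1.05% at least that of Vim, 2.44% at least that of Glul and 2.73% at least that of Clu. Without the 5 arrays of low cone genes the SD of Rlbp1 was 1.17, that of Vim 0.73 and that of Glul 0.65, while that of Clu was 0.45, a value reached by 15.6% of tested genes.

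**Figure D2:**
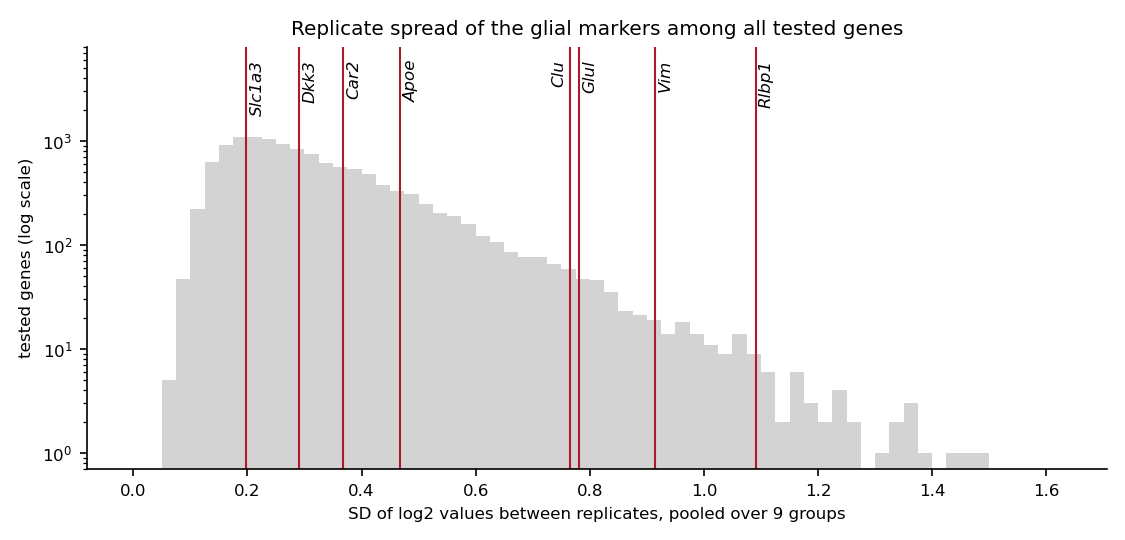
Histogram of the SD between replicates, pooled over the 9 groups (x axis, log2 units), for 12441 tested genes (y axis, number of genes on a log scale). Red lines mark the 8 tested glial markers, of which Rlbp1 (1.09) and Vim (0.91) lie far out in the upper tail and Slc1a3 (0.20) lies below the median of 0.28.

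Rlbp1 shows the size of this spread. On Arc arrays it read 3.65, 3.44 and 4.29, on pure cone arrays 3.59, 3.85 and 4.14, and on pure starburst arrays 3.65, 6.75 and 4.14. A single starburst array was high, and all 3 groups overlapped. In the mixtures it read 3.50, 3.46 and 6.50 with 50 cones, 3.23, 3.73 and 4.22 with 75 and 3.50, 5.21 and 4.81 with 100. It read 7.17, 4.52 and 5.88 with 150 cones, 5.31, 4.33 and 3.38 with 157 and 4.83, 4.28 and 6.11 with 183. The highest array was replicate 1 with 150 cones, and the group order followed neither the number of cones nor that of starburst cells. The limma F test over the 9 groups gave an adjusted p of 0.43 for Rlbp1.

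Glul also spread widely within groups, while its group means spanned 1.93 of its full log2 range of 2.98. It read 6.77, 7.48 and 6.50 on Arc arrays, 5.37, 5.78 and 6.61 on pure cone arrays and 6.60, 5.25 and 5.79 on pure starburst arrays. The Arc arrays were the highest group on average, but their lowest array lay under the highest of both pure groups. Among mixtures Glul peaked at 7.39 on replicate 1 with 150 cones and at 7.73 on replicate 3 with 183 cones. Its adjusted p over the 9 groups was 0.19.

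Vim read 3.76, 4.19 and 4.01 on Arc arrays, 3.87, 4.42 and 5.92 on pure cone arrays and 5.83, 5.65 and 4.49 on pure starburst arrays. All Arc arrays lay under all pure starburst arrays. Its highest values were 7.19 on replicate 1 with 157 cones and 6.32 on replicate 1 with 150 cones. Apoe read 7.08, 7.08 and 6.93 on Arc arrays, 7.47, 6.71 and 7.13 on pure cone arrays and 7.61, 8.03 and 7.63 on pure starburst arrays. Its pure starburst arrays lay above all Arc and all pure cone arrays, and its highest values were again 8.64 and 8.53 on replicate 1 with 150 and with 157 cones. Neither gene was called among the 9 groups in the F test (adjusted p = 0.71 for Vim and 0.37 for Apoe).

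Glul, Rlbp1, Vim and Apoe tended to be high on the same arrays within a group. All 6 pairs of these 4 genes had a positive Pearson r over 27 arrays, between 0.40 (Glul with Rlbp1) and 0.69 (Apoe with Vim), with a median of 0.57. The 4 genes were grouped after their values were seen. Over all 8 tested members 27 of 28 pairs were positive, with a median r of 0.40. Over all pairs of 12441 tested genes the median r was 0.01, 51.9% of pairs were positive and 6.30% reached 0.4. Deviations within 1 array share its RNA and its normalization, so these values describe the arrays and carry no test.

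The high arrays were few. Replicate 1 with 150 cones exceeded its group mean by 1.45 for Glul, 1.31 for Rlbp1, 1.52 for Vim and 1.09 for Apoe. Replicate 3 with 50 cones exceeded its mean by 1.21 for Glul and 2.01 for Rlbp1, and replicate 3 with 183 cones by 1.32 and 1.04. Replicate 2 of the pure starburst arrays was high for Rlbp1 (by 1.90) but read the lowest Glul of its group (5.25). Without single arrays the lowest r of these pairs was 0.21, for Glul with Rlbp1 when replicate 3 with 50 cones was left out. Without replicate 1 with 150 cones Glul with Apoe had 0.29. Over the 22 arrays left without the 5 of low cone genes the 6 pairs lay between 0.36 and 0.69.

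**Figure D3:**
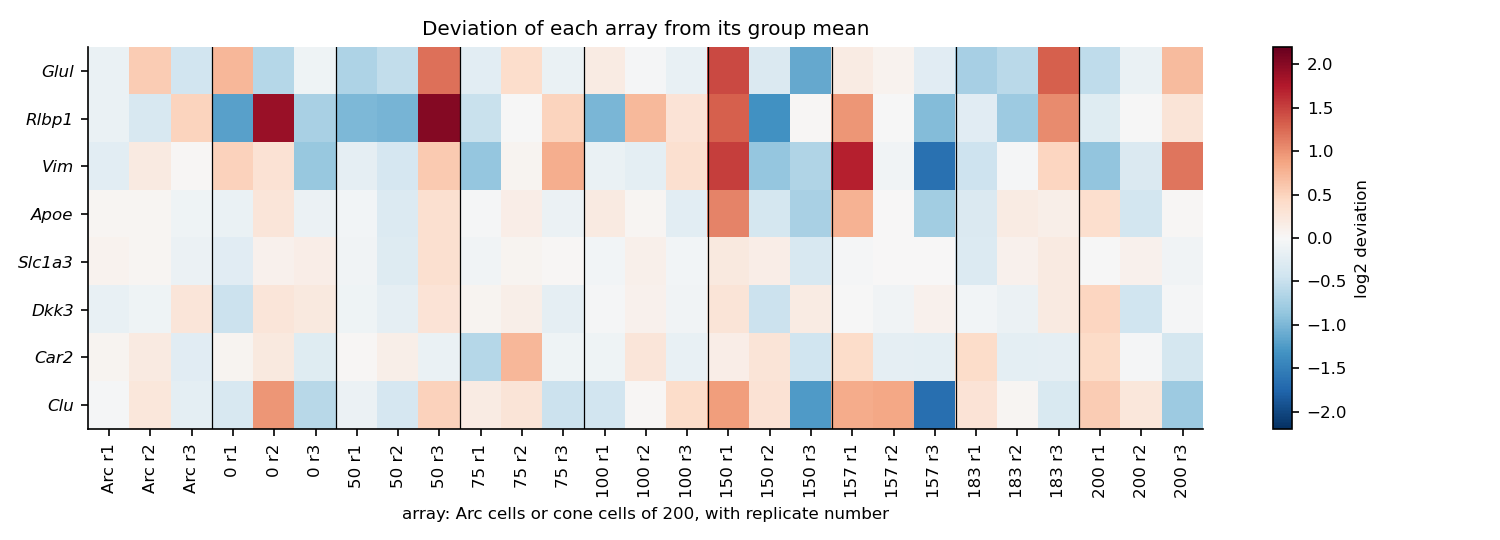
Deviation of each array from its group mean in log2 units (colour) for 8 tested glial markers (rows) on 27 arrays (columns, Arc cells or number of cone cells with replicate number). Replicate 1 with 150 cones is red for Glul (1.45), Rlbp1 (1.31), Vim (1.52) and Apoe (1.09), and Clu is blue on replicate 3 with 150 and with 157 cones.

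Other markers were read on the same arrays. The summed linear level of 13 further Muller genes was 308.2 on replicate 1 with 150 cones, against 235.7 and 231.6 on the other arrays of that group. It was 318.0 on replicate 3 with 50 cones, against 253.5 and 279.1, and 229.4 on replicate 3 with 183 cones, against 164.3 and 175.9. It was also higher on replicate 3 of the pure cones, where Vim read 5.92, at 208.6 against 128 and 113.2. It did not stand out on replicate 1 with 157 cones, where Vim was highest (171.8, against 162.3 and 160.5). Nor did it on replicate 2 of the pure starburst arrays, where Rlbp1 was high (349.1, against 356.9 and 313.5). Gpr37, described below, enters this sum. Bipolar genes summed to 139.0 on replicate 3 with 50 cones, against 67.6 and 64.3, and to 273.5 on replicate 3 with 183 cones, against 110.6 and 120.0. They summed to 136 on replicate 2 of the pure starburst arrays, against 47.0 and 51.8. On replicate 3 of the pure cones their sum was 370.2, against 135.4 and 139. On replicate 1 with 150 cones their sum of 142.7 lay between the other arrays of its group (101.1 and 172.3). The same held for replicate 1 with 157 cones, at 127.4 (107.5 and 165.6). Pigment epithelium genes summed to 27.8 to 37.3 over all arrays, with at most 1 of 6 above the filter level on any array. Microglia genes summed to 33.1 to 74.8 and vascular genes to 28.0 to 54.4. The part of any of these cell types in the spread of the members was not tested. Fewer cells of a type and less RNA per cell cannot be told apart in such samples.

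Among the 3 sorts of the titration, marked by replicate number, limma called 0 of 8 members and 0 of all tested genes (0% called; 780 genes had an unadjusted p under 0.05). Car2 was the 1 member with an unadjusted p under 0.05 (0.011, adjusted p = 0.74). Rlbp1 averaged 4.28 ± 1.62, 4.76 ± 1.30 and 5.09 ± 1.06 (SD, n = 5 arrays) in the sorts numbered 1, 2 and 3, a difference well within its spread. Its high arrays lay in all 3 sorts.

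Arc cells were set against pure starburst cells to compare amacrine cells of different lines. Of the 8 tested members limma called 1, against 3.55% of all tested genes (2.16% higher and 1.39% lower): Dkk3, a secreted glycoprotein of the Dickkopf family. Dkk3 read 5.16, 5.22 and 5.60 on Arc arrays and 3.22, 3.96 and 3.92 on pure starburst arrays. All Arc arrays lay above all 24 others, of which the highest was 4.32. The difference was 1.63 ± 0.23 on the log2 scale (SE, n = 3 arrays each, adjusted p = 5.7e-05), a 3.09-fold higher level. The median difference of the 8 members was 0.22, beside 0.03 for all tested genes.

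The other members were not called between Arc and pure starburst arrays. Clu had a difference of 1.67 ± 0.58 (adjusted p = 0.11), Glul of 1.03 ± 0.59 (0.44) and Car2 of 0.62 ± 0.29 (0.28). Vim had -1.34 ± 0.69 (0.36), Rlbp1 -1.05 ± 0.82 (0.63), Apoe -0.73 ± 0.36 (0.33) and Slc1a3 -0.19 ± 0.17 (0.69). For 5 of the 8 (Dkk3, Clu, Car2, Vim and Apoe) the 2 groups did not overlap, beside 25% of all tested genes. Without the 5 arrays of low cone genes, none of which is in these groups but which enter the pooled spread, Clu was also called (1.67, adjusted p = 0.0043).

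Arc cells were next set against pure cones, with the same Arc arrays as before. Limma called 2 of 8 members, against 10.3% of all tested genes (7.83% higher and 2.51% lower), both higher on Arc arrays: Dkk3 and Car2. The Arc values of Dkk3 above exceeded the 4.32, 3.40 and 3.81 of pure cone arrays by 1.48 ± 0.23 (adjusted p = 7.8e-05), or 2.79-fold. Car2, the cytosolic carbonic anhydrase that Muller glia use in acid-base balance, read 8.0, 8.12 and 7.67 on Arc arrays. It read 7.08, 6.62 and 6.27 on pure cone arrays. The groups did not overlap, and the difference was 1.27 ± 0.29 (adjusted p = 0.0030), or 2.42-fold. With quantile normalization it was 0.96, just under the required difference of 1, with an adjusted p of 0.0062.

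The remaining 6 members ran from -0.75 ± 0.69 for Vim to 0.99 ± 0.59 for Glul between Arc and pure cone arrays, with adjusted p from 0.28 to 0.97. Clu differed by 0.33 ± 0.58 (adjusted p = 0.77). Groups did not overlap for Dkk3 and Car2 alone among the 8, beside 34.2% of all tested genes. The median difference of the members was 0.14, beside 0.07 for all tested genes. In the wider setting of all 9 groups, the F test called Dkk3 (adjusted p = 1.4e-04) and Car2 (0.015), 2 of 8 beside 17.5% of all tested genes.

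Both F-test calls needed the Arc arrays. Over the 24 arrays of starburst cells, cones and mixtures the adjusted p was 0.91 for Dkk3 and 0.40 for Car2. Dkk3 averaged 5.33 ± 0.24 on Arc arrays, and the other group means lay between 3.59 ± 0.27 with 50 cones and 3.93 ± 0.09 with 157 cones (SD, n = 3), and no neighbours in that order differed beyond their spread. Car2 averaged 7.93 ± 0.23 on Arc arrays, above the other group means, which ran from 6.41 ± 0.36 with 157 cones to 7.31 ± 0.25 on pure starburst arrays, and neighbouring groups below the Arc cells overlapped. Without replicate 1 or replicate 2 of the Arc arrays the Car2 call over the 9 groups was lost (adjusted p = 0.063 and 0.073), as it was without the 5 arrays of low cone genes (0.069).

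Other markers differed in the same comparisons. The 7 pan-amacrine genes summed to 1024 to 1221 on Arc arrays, against 176.2 to 278.1 on pure cone and 766.8 to 796.0 on pure starburst arrays. The 6 rod genes summed to 272.6 to 450.0 on Arc arrays, against 2522 to 4018 on pure cone and 485.8 to 964.9 on pure starburst arrays. Sag weighed most in this sum: on pure cone arrays it averaged 11.01 on the log2 scale, and the next, Gnat1, 8.93. Sag was also the 1 of 6 called higher on pure cone than on pure starburst arrays. The 13 further Muller genes summed to 104.1 to 111.9 on Arc arrays, against 113.2 to 208.6 on pure cone and 313.5 to 356.9 on pure starburst arrays. Of the 11 tested among them, limma called 2 lower on Arc than on pure starburst arrays, Gpr37 and Id3. On pure starburst arrays Gpr37 averaged 7.75 on the log2 scale, and the next highest gene of the sum, Nfix, averaged 4.27. Gpr37 averaged 4.33 on pure cone and 4.47 on Arc arrays, so the higher sum on pure starburst arrays rests largely on this gene. The part of these other markers in the differences of Dkk3 and Car2 was not tested.

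**Figure D4:**
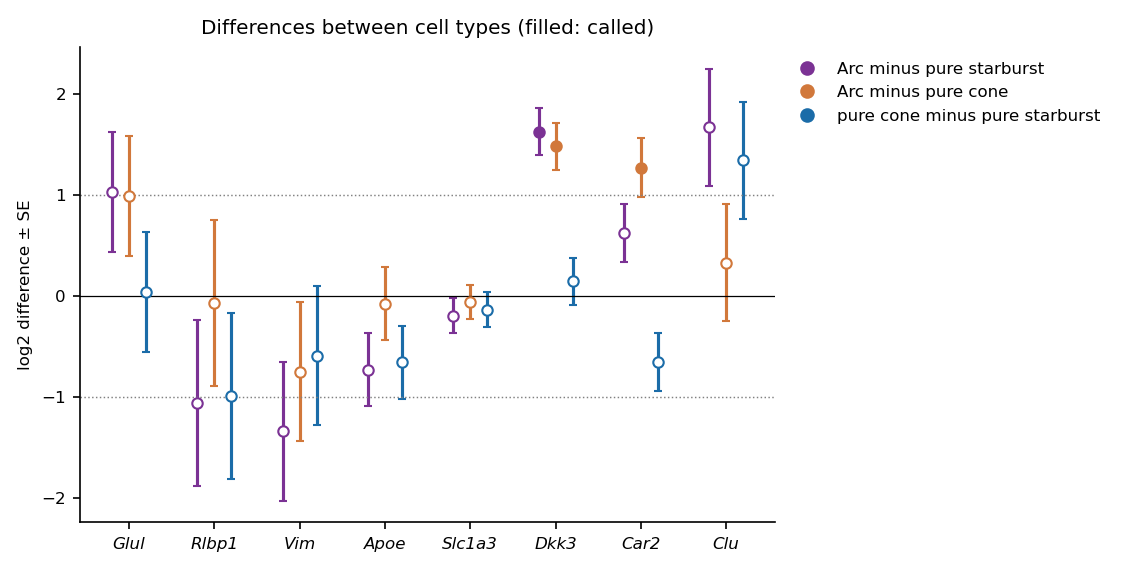
Log2 difference (y axis, points with SE bars, n = 3 arrays per group) of 8 tested glial markers (x axis) for Arc minus pure starburst, Arc minus pure cone and pure cone minus pure starburst arrays. Filled points were called and dotted lines mark a difference of 1 in either direction. Dkk3 is filled in both Arc comparisons (1.63 and 1.48) and Car2 against pure cones (1.27).

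The comparison of pure cone with pure starburst cells gave 0 called members of 8 by limma, against 8.42% of all tested genes (2.64% higher and 5.79% lower), with 2 members at an unadjusted p under 0.05, beside 26.1% of all tested genes. These were Clu and Car2. The cone values of Car2 above stood against 7.37, 7.52 and 7.03 on pure starburst arrays, a difference of -0.65 ± 0.29 (adjusted p = 0.15). Only the highest cone array (7.08) lay above the lowest starburst array. Apoe differed by -0.66 ± 0.36 (0.26), and Rlbp1 by -0.99 ± 0.82 (0.49), Vim by -0.59 ± 0.69 (0.65) and Slc1a3 by -0.13 ± 0.17 (0.68). Single arrays set these sizes, with no call in any case: Rlbp1 differed by -0.04 without replicate 2 of the pure starburst arrays, and Vim by -0.15 without replicate 1 and by -1.18 without replicate 3 of the pure cone arrays. Dkk3 differed by 0.15 ± 0.23 (0.75) and Glul by 0.04 ± 0.59 (0.98). Groups did not overlap for 1 of the 8, Apoe, beside 28.9% of all tested genes, and the median difference of the members was -0.36 beside -0.04.

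Clu, the secreted chaperone clusterin, was called in some settings and not in others. It read 8.80, 8.49 and 7.44 on pure cone arrays and 6.54, 7.87 and 6.29 on pure starburst arrays. Replicate 3 of the cones lay under the highest starburst array, and the difference was 1.34 ± 0.58 (adjusted p = 0.14). Without the 5 arrays of low cone genes, among them that cone array, it was 1.75 (adjusted p = 0.0039) and Clu was called. Clu followed the cone gene Opn1mw within groups (r = 0.83), so the choice of these arrays favours this call. Leaving out single arrays of the pure groups gave no call (lowest adjusted p 0.063). With quantile normalization it was 1.60 (adjusted p = 0.044), also a call.

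A slope on the share of cones, fitted to the 15 titration arrays, used the mixtures as well. Limma called 0 of 8 members, against 8.2% of all tested genes (2.55% higher and 5.65% lower), and 2 had an unadjusted p under 0.05, beside 27.9% of all tested genes. Clu averaged 6.90 ± 0.85 with 0 cones, 7.60 ± 0.45 with 50, 8.04 ± 0.41 with 100, 7.88 ± 1.12 with 150 and 8.24 ± 0.71 with 200 (SD, n = 3 each). Its slope was 1.19 ± 0.46 from 0 to 200 cones (adjusted p = 0.098). Without the 2 titration arrays of low cone genes it was 1.79 (adjusted p = 0.0035), and over all 24 arrays with the X mixtures 1.42 (adjusted p = 0.027), both calls. Leaving out replicate 3 with 150 cones alone also gave a call (1.39, adjusted p = 0.026).

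The single arrays show where Clu was low. With 150 cones it read 8.81, 8.19 and 6.64, and with 157 cones 8.55, 8.59 and 6.08. In both groups replicate 3 was far under the others, and these are arrays of low cone genes. With 75 cones it read 7.0, 7.10 and 6.33, and with 183 cones 8.86, 8.60 and 8.22. Over the 27 arrays the deviations of Clu from its group means had an r of 0.51 with the deviations of the SD of all values on an array and of -0.51 with the mean deviation of 6 rod genes. The deviations of Clu also followed those of the cone opsin Opn1mw (r = 0.83), a gene chosen after its values were seen. Over the 22 arrays left without those of low cone genes these values were -0.08 for the array SD, 0.54 for the rod genes and 0.67 for Opn1mw. The relation with the array SD thus rests on the 5 arrays, and the relation with the rod genes had the opposite sign without them. The part of array quality and rod RNA in the values of Clu was not tested.

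Car2 was not called along the titration. It averaged 7.31 ± 0.25 with 0 cones, 6.96 ± 0.14 with 50, 7.11 ± 0.23 with 100, 6.83 ± 0.38 with 150 and 6.66 ± 0.40 with 200 (SD, n = 3 each). The slope was -0.57 ± 0.20 (adjusted p = 0.067), under the required size of 1. Its deviations had an r of 0.72 with those of the array SD and of -0.49 with those of the rod genes, against 0.65 and -0.17 over the 22 arrays. The other slopes lay between -0.49 ± 0.32 for Apoe and 0.17 ± 0.22 for Dkk3, with adjusted p from 0.36 to 0.90.

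The genes most like each member over the 27 arrays were found by Pearson r, with arrays sharing their RNA and scale. Dkk3 was most like Frmd5 (0.93), Adcy8 (0.91), a calcium-stimulated adenylyl cyclase, and Clmp (0.90), an adhesion molecule. Car2 was most like Atp6ap2 (0.82), an accessory protein of the proton pump, Tsr2 (0.81) and Cul1 (0.80), a ubiquitin ligase scaffold. Clu was most like Lynx1 (0.85), a modulator of nicotinic receptors, Cplx3 (0.83), a complexin of ribbon synapses, and Prps1 (0.81).

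Apoe and Vim had 2 of their 3 nearest genes in common. Apoe was most like S100a16 (0.75), S100a6 (0.74) and Spc25 (0.72), and Vim was most like S100a6 (0.73), S100a16 (0.73) and Neurog3 (0.68). S100a6 and S100a16 are calcium-binding proteins. Glul was most like Ccdc160 (0.80), the opioid precursor Penk (0.73) and Pcolce2 (0.71). Rlbp1 was most like Trpm1 (0.66), the cation channel of ON bipolar cells, the small heat shock protein Cryab (0.66) and Olfr651 (0.65). Trpm1 was itself near the level of dim probes, above the filter level on 3 arrays, with 3.02 as its highest value. Slc1a3, near the level of dim probes, was most like Spc25 (0.70), Inava (0.64) and Rhbdl3 (0.62).

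Related genes were read from lists written with earlier results known. Counts of an unadjusted limma p under 0.05 stand beside these shares of all tested genes. They were 26.1% for pure cone against pure starburst, 16.1% for Arc against pure starburst, 29.6% for Arc against pure cone and 27.9% for the slope. Of 11 tested Muller genes beyond the members, 1 was lower and 0 higher on pure cone than on pure starburst arrays, with a median difference of -0.13. This was Gpr37, an orphan receptor known from glia and neurons, at -3.42 ± 0.20 (adjusted p = 5.8e-11). On Arc against pure starburst arrays 2 of 11 were lower, Gpr37 at -3.28 ± 0.20 (8.4e-11) and the transcriptional inhibitor Id3 at -1.17 ± 0.30 (0.021), with a median of -0.45. Id3 averaged 2.58 on Arc arrays, under the filter level. On Arc against pure cone arrays limma called 0 of 11, with 2 at an unadjusted p under 0.05. Gpr37 averaged 4.47 on Arc and 4.33 on pure cone arrays, against 7.75 on pure starburst arrays, with a slope along the titration of -2.95 ± 0.46 (4.1e-04). Kcnj10, the potassium channel of Muller endfeet, exceeded the filter level on 4 of 27 arrays, with 3.23 as its highest value.

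Astrocyte genes beyond the members gave calls in both directions. On pure cone against pure starburst arrays 1 of 6 was higher, Slc1a2 (2.05 ± 0.48, adjusted p = 0.0047), the glutamate transporter GLT-1, which cones and bipolar cells of the mouse retina also use. It averaged under the filter level on Arc (2.49) and pure starburst arrays (2.38), so the size of its differences depends on the background. Another, the glycolytic enzyme Aldoc, was lower (-1.39 ± 0.18, 8.9e-06). On Arc against pure cone arrays Aldoc was higher (2.17 ± 0.18, 1.3e-08) and Slc1a2 lower (-1.95 ± 0.48, 0.0057), and on Arc against pure starburst arrays limma called 0 of 6, with 1 at an unadjusted p under 0.05. The slope of Aldoc along the titration was called at -1.15, but without the arrays of low cone genes it was -0.9956, just under the required size. Aldh1l1 and Gjb6, which mark astrocytes in brain, exceeded the filter level on 0 arrays. S100b exceeded it on 11 of 27 and Gja1, the gap junction protein of astrocytes, on 12.

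In the glutamate and glutamine cycle, which Glul and Slc1a3 serve in glia, 2 of 7 tested genes were higher on pure cone than on pure starburst arrays and 0 lower. These were the glutamine transporter Slc38a3 (2.35 ± 0.43, adjusted p = 4.9e-04) and Slc1a2. On Arc against pure cone arrays 2 of 7 were higher, the transporter Slc1a1 (1.32 ± 0.21, 8.2e-05) and the glutamate dehydrogenase Glud1 (1.25 ± 0.28, 0.0023), and 2 lower, Slc38a3 (-2.22 ± 0.43, 7.0e-04) and Slc1a2. Slc1a1 averaged 2.51 on pure cone arrays, under the filter level, so the size of its difference also depends on the background. Glud1 was also the 1 gene of 7 called on Arc against pure starburst arrays (1.06 ± 0.28, 0.021). Along the titration Slc38a3 (2.29 ± 0.37, 5.1e-04) and Slc1a2 (1.68 ± 0.39, 0.0067) rose with cone share.

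Intermediate filament genes other than Vim and Gfap held 1 called gene of 6, the neuronal filament Ina. It was lower on pure cone than on pure starburst arrays (-3.71 ± 0.28, adjusted p = 4.0e-09), lower on Arc than on pure starburst arrays (-1.07 ± 0.28, 0.022) and higher on Arc than on pure cone arrays (2.65 ± 0.28, 4.2e-07). Without the arrays of low cone genes the nuclear lamin Lmna was also called higher on Arc than on pure cone arrays (1.0, adjusted p = 0.041). Nes and Des exceeded the filter level on 0 arrays. Among genes of water, potassium and acid-base balance, which Aqp4 and Car2 serve, dystrophin Dmd was higher on pure cone than on pure starburst arrays (1.53 ± 0.17, 1.7e-06), 1 of 6 called. Dtna, which binds dystrophin, was the 1 of 6 called on Arc against pure starburst arrays (1.18 ± 0.16, 3.5e-05). On Arc against pure cone arrays Dtna (1.26 ± 0.16, 7.1e-06) and the anion exchanger Slc4a3 (1.21 ± 0.22, 4.1e-04) were higher and Dmd lower (-1.54 ± 0.17, 1.3e-06). Dtna and Dmd lay under the filter level in the lower groups, so these differences depend on the background.

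Of 6 tested reactive glia genes limma called 0 in each comparison of cell types, with 0 to 2 at an unadjusted p under 0.05. On the slope 1 was called, the iron-binding lipocalin Lcn2 (2.08 ± 0.68, adjusted p = 0.049). Without the arrays of low cone genes Lcn2 was also called higher on pure cone than on pure starburst arrays (2.99, adjusted p = 0.028) and lower on Arc than on pure cone arrays (-3.24, 0.015). Of 5 genes of retinoid handling, which Rlbp1 serves, limma also called 0 between cell types, with 0 to 2 at an unadjusted p under 0.05. On the slope 1 was called, the retinal reductase Dhrs3 (2.10 ± 0.63, 0.032), a call lost without the arrays of low cone genes (1.46, 0.16).

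Of 5 lipoprotein and cholesterol genes related to Apoe, limma called 0 between cell types and on the slope, with 0 to 2 at an unadjusted p under 0.05. Vldlr, a receptor for apolipoprotein E, averaged 5.01 on Arc, 5.94 on pure cone and 5.12 on pure starburst arrays. Without the arrays of low cone genes Vldlr was called, higher on pure cone than on pure starburst arrays (1.17, adjusted p = 0.0077) and along the titration (1.22, 0.0071), and lower on Arc than on pure cone arrays (-1.28, 0.0035). Of 7 secreted Wnt modulators related to Dkk3, limma called 0, with 1 at an unadjusted p under 0.05 in each comparison. Sfrp5, a secreted frizzled-related protein, averaged 2.62 on Arc, 3.13 on pure cone and 2.92 on pure starburst arrays, near the filter level.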

How the data were processed

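Expression was measured in 27 samples, each on its own array. The deposited values are log2 values that the authors made with RMA in the R package oligo under R 2.11.1, per the submitters' processing notes, which also name build mm9; which arrays were normalized together is not given in the sources used here. Of 22347 probe sets, 19446 had 1 symbol in the probe table, 735 several and 2166 none, and the last kinds were left out. A gene with several probe sets was read from the one of highest mean. Groups and replicate numbers came from the sample titles.

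Tests were two-sided, with limma 3.58.1 (lmFit, eBayes) in R 4.3.3 over 12441 genes above 2.83, the median of all values, on at least 3 arrays, with 1 mean per group for 9 groups and 18 residual degrees of freedom. Slopes used the 15 titration arrays. Calls needed an adjusted p (Benjamini-Hochberg) under 0.05 and an absolute log2 difference of at least 1, or the adjusted p alone in F tests. The members, the lists and the rule for named genes were chosen with earlier results of these data known. The rule named all 10 members, for each tested member the 3 named genes of highest Pearson r over 27 arrays, the called genes of each list (up to 4 per comparison), the brightest gene of a list with none called, and Chat, Chrnb4 and Arc; Kcnj10, Aldh1l1, Gjb6, S100b, Gja1, Nes, Des, Lmna and the genes named for their deviations were added after their values were seen. Lists are described by counts and medians.

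Replicate numbers mark sorts from different mice for the titration, by the design text. Deviations of titration arrays with the same number correlated at -0.03 to 0.23 (median 0.02) over 30 pairs of arrays, so the fit with the number as a block is an alternative. Arrays of low cone genes were found after the data were seen. The fits were tested on simulated data. Promoter windows are RefSeq's on GRCm38.p6, not the build named for the arrays, and only their sequences were used.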

Additional observations from a re-analysis of the deposited data

How the results depend on the processing

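Over 976 pairs of a member result and an alternative, 961 stayed as they were, called or not called. A call was lost in 6 and gained in 9, and 0 reversed a called direction. Most of these results were not called to begin with. A change of sign without a call was counted as unchanged, and F tests have no direction. With quantile normalization the members called numbered 1 for pure cone against pure starburst (Clu, 1.60), 1 for Arc against pure cone (Dkk3, with the Car2 call lost at 0.96) and 1 for the slope (Clu, 1.46). Without the 5 arrays of low cone genes, an alternative added after the data were seen, they numbered 1 for pure cone against pure starburst (Clu), 2 for Arc against pure starburst (Clu and Dkk3) and 1 for the slope (Clu). Over the 9 groups they were then Clu (adjusted p = 0.0039) and Dkk3. With all 24 starburst and cone arrays the slope called 1 (Clu) and the test among groups 0. Leaving out 1 array at a time, the slope called 0 to 1 and the 9 groups 1 to 3, with Clu (0.030) called without replicate 3 with 157 cones; the other comparisons kept their counts. With replicate number as a block the same members were called, Dkk3 at 1.63 (9.6e-05) and 1.48 (1.1e-04) and Car2 at 1.27 (0.0014), and Clu kept 1.34 without a call (0.080). Where a value changed its side the cause was not tested. Rescaling moved the median of all tested genes by under 0.1 in each comparison of cell types. A p that misses the threshold with 3 arrays per group does not show that a member did not differ.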

Other observations

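Deviations from the group means also followed genes outside the lists, named here after their values were seen. Glul followed Aldh1a1 (r = 0.85 over 27 arrays), a retinaldehyde dehydrogenase, and Plaat3 (0.80). Apoe followed S100a16 (0.85), Rab20 (0.84) and Fxyd1 (0.80), a regulator of the sodium pump, and Vim followed Neurog3 (0.82). Car2 followed Eif3c (0.88), a translation initiation factor, Ganab (0.88) and the glycolytic enzyme Pkm (0.83). Clu followed Zfand1 (0.88), Pcbp2 (0.87) and Mfge8 (0.85), a secreted protein that bridges dying cells to phagocytes. The arrays share RNA and scale, so these values are a description.

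The summed linear level of the 10 members ran from 361.5 on replicate 3 with 157 cones to 1402 on replicate 1 with 150 cones. It was 841.9 to 1127 on Arc arrays, against 597.5 to 862.3 on pure cone and 535.8 to 904.7 on pure starburst arrays, so the Arc arrays overlapped both.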
